A study of Mus musculus with 6 samples.

Results

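miR-652 is a microRNA precursor of the mouse X chromosome that gives rise to 2 mature arms, mmu-miR-652-3p and mmu-miR-652-5p, and both are described here out of 1573 known mouse miRNA rows in a table of 61628 small RNA rows. The arms were taken by name, and the precursor was chosen by the abundance of its 3p arm in these same libraries, so its levels and ranks are given as a description with no test. Small RNAs were sequenced from primary peritubular myoid cells of C57BL/6J mice, the contractile cells around the seminiferous tubules of the testis. The 3 untreated libraries (n = 3) came from cells kept without endothelin-1, and the 3 ET1 libraries (n = 3) from cells given 50 nM endothelin-1 (ET1), a peptide that contracts smooth muscle, for 5 min at 37 °C. Cells of both groups had been grown in DMEM/F12 with 10% fetal bovine serum. Neither the age of the mice nor the number of cultures or animals behind the libraries is given in the labels, and the p-values therefore speak of library-to-library variation, part of which can be technical.

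A miRNA hairpin is cut by Drosha in the nucleus and by Dicer in the cytoplasm into a short duplex. Argonaute keeps the guide arm, which finds target mRNAs through its seed, and the passenger arm is usually degraded. The 3p arm of miR-652 is its guide in most tissues, and in the heart and in endothelial cells it is known to repress Jag1, which encodes a ligand of the Notch receptors.

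The sequences are shown because the whole contrast in this precursor lies between its arms. RefSeq, on the build GRCm38.p6, gave both arms, the 3p arm at chrX:142739060-142739080 and the 5p arm at chrX:142739020-142739043, plus strand. Capitals mark the seed, bases 2 to 8 from the 5′ end.
mmu-miR-652-3p: aAUGGCGCcacuaggguugug
mmu-miR-652-5p: cAACCCUAggagggggugccauuc
In the hairpin Mir652, at chrX:142739000-142739097, plus strand, and 98 bases long, capitals mark the mature arms, the 5p arm first.
Mir652: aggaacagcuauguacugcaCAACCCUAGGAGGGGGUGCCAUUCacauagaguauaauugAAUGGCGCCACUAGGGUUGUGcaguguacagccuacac
The 3p arm is 21 and the 5p arm 24 bases long, with 16 bases of loop between them. RNAfold gave the hairpin a minimum free energy of −49 kcal/mol and paired 18 bases of each arm with the other arm. Among the first 4 bases of the 3p arm this fold has 1 G-C and 3 A-U pairs, and among those of the 5p arm 2 G-C and 2 A-U pairs. The 3p arm starts with A and the 5p arm with C. Of the 1679 mature miRNA names in the RefSeq table, 0 others had the seed of the 3p arm and 0 others that of the 5p arm. Within RefSeq, neither row thus stands for a wider seed family. RefSeq matched 1340 of the 1573 known miRNA rows, and the seeds of the unmatched rows were not searched.

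The hairpin lies on the plus strand inside Tmem164 (chrX:142681406-142843494, plus strand in GENCODE M21), which encodes a membrane acyltransferase of ether lipids. In each of the 7 annotated transcripts that span it, the hairpin falls in an intron, the first or the second, and touches no exon of Tmem164. The nearest other precursor on the same strand, Mir680-2, is 1558693 bases away, and 0 lie within 100 kb, so miR-652 is not part of a miRNA cluster in this annotation. The level of Tmem164 mRNA was not analysed here.

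The depth was 18127265 to 20895432 tags per library, of which 6240334 to 8651018 in untreated and 4381927 to 4825429 in ET1 libraries were known miRNA tags. Known miRNAs thus held 30.1% to 45.6% of the untreated and 22.6% to 25.5% of the ET1 tags, and fragments of rRNA 3.22% to 5.63% and 7.12% to 11.02%, both without overlap. Levels per library before TMM scaling are given below as raw CPM, the tags per 1000000 known miRNA tags. The smooth muscle miRNAs of the contractile label (miR-143 and miR-145a, 4 arms, led by miR-143-3p) were present and summed to 19454 to 23874 raw CPM in untreated and 14002 to 18343 in ET1 libraries. The mesenchymal list of 5, led by miR-22-3p, summed to 43863 to 56193 and 44769 to 57591. Of the other lists, the endothelial one of 2 (miR-126a-3p highest) went from 1057 to 1646 in untreated libraries down to 131 to 192 in ET1 libraries. The leukocyte list of 6 (miR-155-5p highest) summed to 2353 to 4330 and 1215 to 2524, and the red cell list of 4 (the miR-486a-5p and miR-486b-5p row highest) to 125 to 874 and 511 to 1485. The Sertoli and epithelial list of 7 (miR-202-3p highest) summed to 981 to 1365 and 818 to 2197, and the germ cell list of 6 (miR-871-3p highest) to 385 to 1060 and 896 to 5497. The germ cell list leaves out the testis-enriched miR-470-5p, which averaged 49204 raw CPM over all libraries. It also leaves out the testis-enriched shared row of miR-465a-3p, miR-465b-3p and miR-465c-3p, which averaged 15505 raw CPM. The germ cell sums are therefore not a total of testis-enriched miRNAs. Every listed miRNA had at least 1 tag in the series. Smooth muscle and endothelial sums did not overlap between the groups. In raw CPM, 31 of the 616 known miRNAs tested below were lower and 129 higher in ET1 without overlap. In the edgeR comparison described below 0 of the 3 smooth muscle and 0 of the 5 mesenchymal miRNAs tested passed. Of the 2 endothelial, 4 leukocyte and 2 red cell miRNAs tested, 1 each did. Over all 616 tested, 11 (1.79%) passed. miR-126a-3p fell by 3.61 on the log2 scale (edgeR adjusted p = 0.00019). The other endothelial miRNA, miR-126a-5p, was at −2.01 and did not pass (edgeR adjusted p = 0.079). miR-150-5p, of lymphocytes and named because it passed, fell by 3.45 (edgeR adjusted p = 0.00036). The other leukocyte miRNAs tested were miR-155-5p at −1.41, miR-342-3p at −0.79 and miR-223-3p at 0.29. The miR-486a-5p and miR-486b-5p row rose by 2.41 (edgeR adjusted p = 0.024). The other red cell miRNA tested, miR-451a, went the other way, at −0.56 (edgeR adjusted p = 0.87). None of the 7 Sertoli and epithelial or the 6 germ cell miRNAs tested passed. The part of any of these shifts in the results below was not tested.

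miR-652-3p was among the most abundant miRNAs of every library. In the untreated libraries it had 736110, 565486 and 720695 tags, which is 9.07%, 6.54% and 11.55% of the known miRNA tags. In the ET1 libraries it had 354021, 213464 and 564467 tags, or 7.65%, 4.87% and 11.7%. The lowest share was in ET1 library 2 and the highest in ET1 library 3, so the ET1 values enclosed all 3 untreated values. It had rank 3 of all known miRNA rows in 5 libraries and rank 4 in ET1 library 2, where miR-470-5p, a testis-enriched miRNA of the X chromosome, stood above it with 355568 tags. Among all small RNA rows, leaving out the 4 totals by genomic class, it ranked 3, 4 and 4 in the untreated and 5, 7 and 5 in the ET1 libraries.

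**Figure D1:**
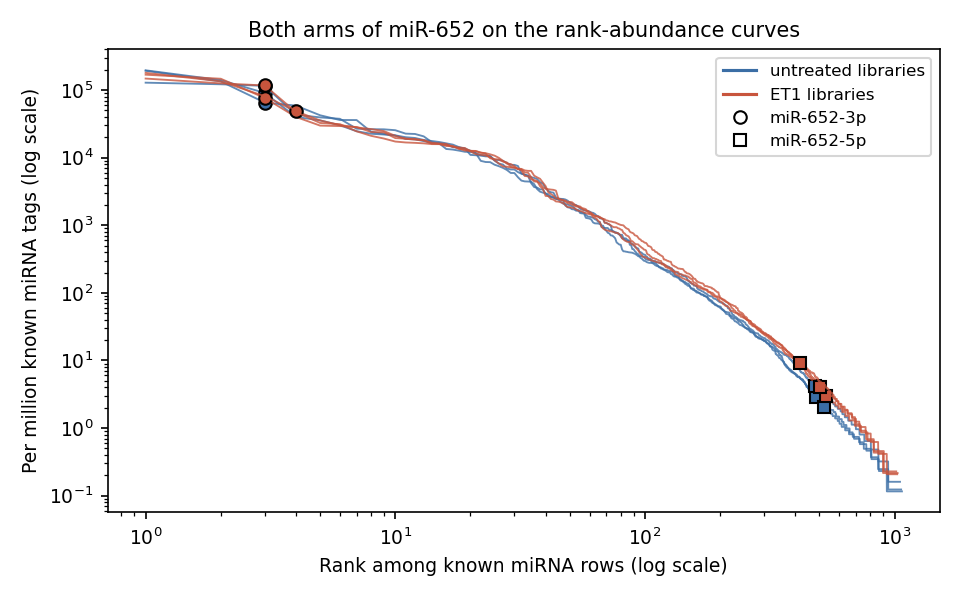
Level of every known miRNA row (raw CPM, log axis) against its rank in the library (log axis), with 1 line per library and marks for miR-652-3p (circles) and miR-652-5p (squares). The 3p arm sits at ranks 3 and 4 and the 5p arm between ranks 419 and 532 in all 6 libraries.

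By the mean of the 6 libraries the order around miR-652-3p was let-7c-5p, let-7b-5p, miR-652-3p, miR-470-5p, miR-181a-5p and let-7a-5p. miR-652-3p averaged 85631 ± 27412 raw CPM (SD, n = 6). let-7b-5p, of the let-7 family that restrains proliferation, averaged 134042 ± 9289, and its lowest library, at 121861, lay above the highest of miR-652-3p, at 116978. Its lower neighbour miR-470-5p, at 49204 ± 18439, ranged from 30158 to 81144 raw CPM and overlapped with miR-652-3p, whose lowest library was at 48715. miR-181a-5p, known from lymphocyte development, averaged 30673 ± 7844 and let-7a-5p 30464 ± 8928, and the highest library of each, at 43189 and 42390, was below the lowest of miR-652-3p. let-7c-5p averaged 169127 ± 26438. The distance to let-7b-5p was small in untreated library 3, at 121861 against 115490 raw CPM, and in ET1 library 3, at 125771 against 116978.

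The coefficient of variation of the 3p arm, taken on raw CPM, was 27.7% in untreated and 42.5% in ET1 libraries. The median over the 616 known miRNAs tested below was 34.9% and 35.1%, and 392 of them in the untreated and 226 in the ET1 libraries had a larger value than miR-652-3p. Among the 20 most abundant miRNAs its coefficient of variation was the largest in the ET1 libraries and the 10th largest in the untreated ones. The share spanned 2.4-fold from the lowest to the highest of the 6 libraries.

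The comparison of ET1 with untreated cells asks whether the peptide moves small RNAs within minutes. Neither arm of miR-652 passed it. Both arms passed the filter on low counts, as did 616 of the 1573 known miRNA rows. Of those 616, 11 (1.79%) had an edgeR adjusted p under 0.05. Scaling by TMM gives each library 1 factor, on the assumption that most miRNAs do not change between libraries. After it, miR-652-3p stood at 103839, 80102 and 120950 TMM-scaled CPM in untreated libraries. In ET1 libraries miR-652-3p stood at 66520, 45119 and 99098 CPM. The highest ET1 library exceeded the lowest untreated library, so the groups overlapped. The means were 101630 ± 20513 CPM in untreated and 70246 ± 27182 CPM in ET1 libraries (SD, n = 3 each). The log2 fold change of the 3p arm was −0.53 (SE 0.32, 95% interval −1.22 to 0.16; edgeR adjusted p = 0.38), and of the 616 miRNAs 139 had a lower log2 fold change.

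The size of this difference followed the scale of measurement. As a share of known miRNA tags the 3p arm held 9.05% ± 2.51 in untreated and 8.07% ± 3.43 in ET1 libraries (SD, n = 3 each), a difference of −0.98 percentage points (exact permutation p = 0.8, two-sided, adjusted 0.8 over 4 quantities). The sign of that difference turned without untreated library 3, at 0.27 points, and without ET1 library 2, at 0.62 points. In the authors' deposited values, which are scaled to the tags of all rows, it stood at 35191, 29804 and 34815 RPM (reads per 1000000 tags of all rows) in untreated and 19502, 10978 and 28955 RPM in ET1 libraries. In these deposited values all 3 ET1 libraries were below all 3 untreated ones, 19812 ± 8993 against 33270 ± 3008 RPM (SD, n = 3 each). A two-sided exact permutation test gave p = 0.1 (adjusted 0.2), and with 3 libraries in each group no smaller p can be reached. Of the 616 tested miRNAs 97 (15.7%) were lower without overlap when their counts were scaled to all tags, and the part of known miRNAs in all tags was itself lower in every ET1 library.

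**Figure D2:**
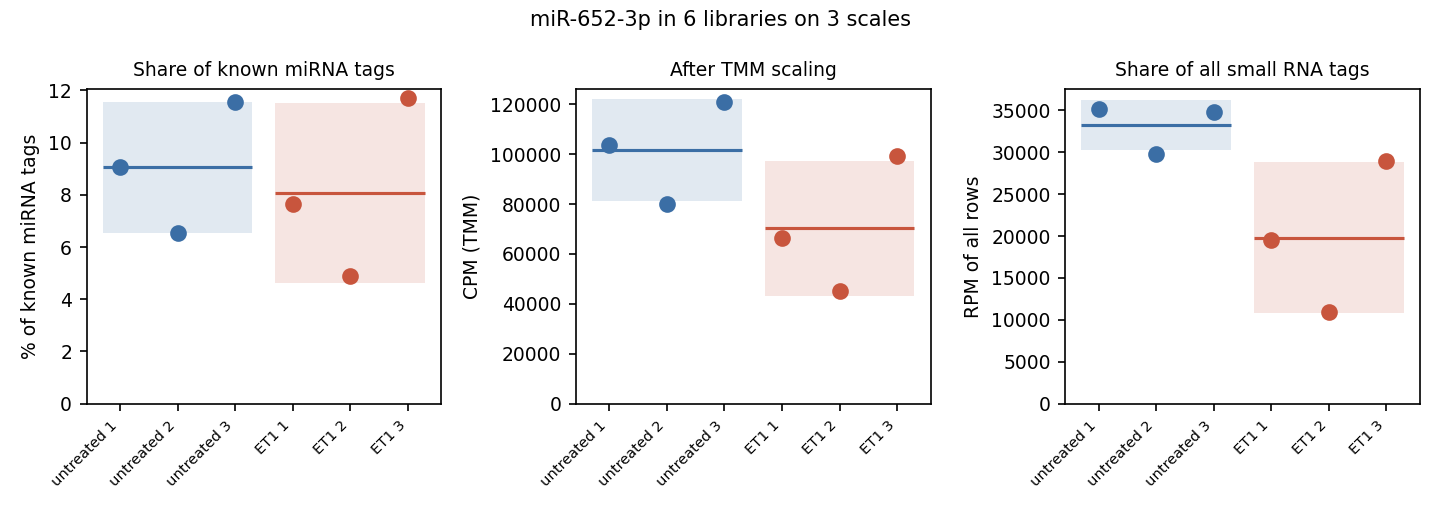
Level of miR-652-3p in each of the 6 libraries as a percentage of known miRNA tags (left), as CPM after TMM scaling (middle) and as the authors' deposited RPM of all rows (right), with points for libraries, lines for group means and shading for 1 SD (n = 3). The groups overlap in the left and middle panels and separate in the right panel, where ET1 library 3 at 28955 RPM is just below untreated library 2 at 29804 RPM.

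A change of scale shifts all miRNAs by nearly the same amount. The distance of the 3p arm from their median was thus bound to stay nearly the same and is no sign of stability. With library sizes alone the log2 fold change of the 3p arm was −0.17, but the median of all tested miRNAs was then 0.37, and the arm lay 0.54 below it (−0.54). With all small RNA rows fitted together its log2 fold change was −0.98 and the median of the known miRNAs −0.46, a distance of −0.52. With TMM the median was 0.0058 and the distance −0.54. Leaving out single libraries did change the distance, to −0.85 without ET1 library 3 and −0.32 without ET1 library 2. The log2 fold changes were then −0.87 and −0.32. Over 15 alternative settings the value stayed below 0, from −0.98 to −0.17, and the adjusted p from 0.17 to 0.83.

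miR-652-5p was scarce. It had 23, 18 and 26 tags in the untreated and 14, 18 and 44 tags in the ET1 libraries, which is 2.84, 2.08 and 4.17 raw CPM in untreated libraries and 3.03, 4.11 and 9.12 in ET1 libraries. ET1 library 3 was the highest, and the other 5 libraries lay between 2.08 and 4.17 raw CPM with the groups mixed. Its ranks were 484, 520 and 479 in untreated and 532, 503 and 419 in ET1 libraries, of 1015 to 1070 known miRNA rows with a count. Group means were 3.03 ± 1.06 and 5.42 ± 3.25 raw CPM (SD, n = 3 each), with a two-sided exact permutation p of 0.3 (adjusted 0.4). Counting error alone gives the 5p arm a coefficient of variation of 21.4% in untreated and 22.3% in ET1 libraries, against 34.9% and 60.01% observed.

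In edgeR the log2 fold change of miR-652-5p was 0.49 (SE 0.55, 95% interval −0.69 to 1.66; edgeR adjusted p = 0.70). The estimate rested on ET1 library 3, since without it the log2 fold change was −0.067. With the share of known miRNA tags as a covariate it was −0.14 (SE 0.95). That share did not overlap between the groups, so this fit can hardly separate it from ET1. The authors' deposited table, which compares counts summed over the libraries of a group, lists miR-652-5p as higher in ET1 with a log2 ratio of 0.88, a p-value of 0.000225 and a q-value of 0.000125. The same authors' deposited table lists miR-652-3p as lower, with a log2 ratio of −0.14 and a p-value and q-value of 0. The summed counts behind these entries were 67 and 76 tags of the 5p arm and 2022291 and 1131952 tags of the 3p arm, untreated first, in the authors' deposited table. In the authors' deposited table, of 1327 rows with a q-value, 637 (48.0%) had a q-value under 0.001. Sums over libraries carry no term for the spread between libraries, and both deposited log2 ratios exceed the log2 ratio of the summed counts by the same 0.70 (−0.84 for the 3p and 0.18 for the 5p arm; pooled minus deposited −0.70).

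**Figure D3:**
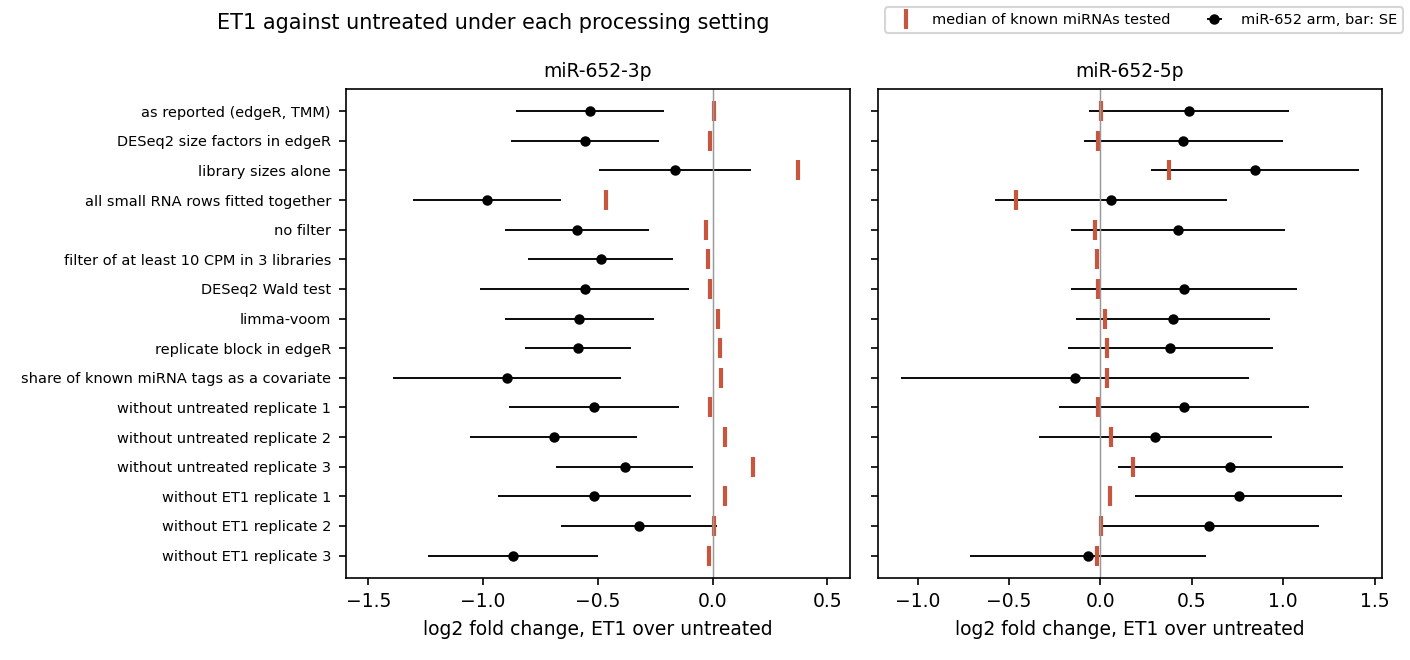
log2 fold change of ET1 over untreated for miR-652-3p (left) and miR-652-5p (right) under each setting, with bars for the SE and red ticks for the median of the known miRNAs tested. All values of the 3p arm are below 0, the 5p arm crosses 0 without ET1 library 3 and with the covariate, and the 5p arm has no value under the 10 CPM filter, which it did not pass.

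The ratio of the arms needs no scaling, since both counts come from the same library. There were 32005, 31416 and 27719 tags of the 3p arm for each tag of the 5p arm in untreated libraries, and 25287, 11859 and 12829 in ET1 libraries. All 3 ET1 libraries were below all 3 untreated ones. On the log2 scale the ratio was 14.89 ± 0.11 in untreated and 13.94 ± 0.60 in ET1 libraries (SD, n = 3 each), a difference of −0.95 (exact permutation p = 0.1, adjusted 0.2 over 4 quantities, two-sided). Leaving out 1 library moved this difference between −1.30 (without ET1 library 1) and −0.75 (without ET1 library 2). Exact binomial intervals (95%, counting error only) ran from 15071 to 46254 in ET1 library 1, which overlaps those of all untreated libraries. In ET1 library 3 the interval of 9556 to 17656 lay below the lowest untreated bound, 18918 in untreated library 3. In ET1 library 2 it was 7504 to 20010, which reached into the intervals of untreated libraries 2 and 3.

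**Figure D4:**
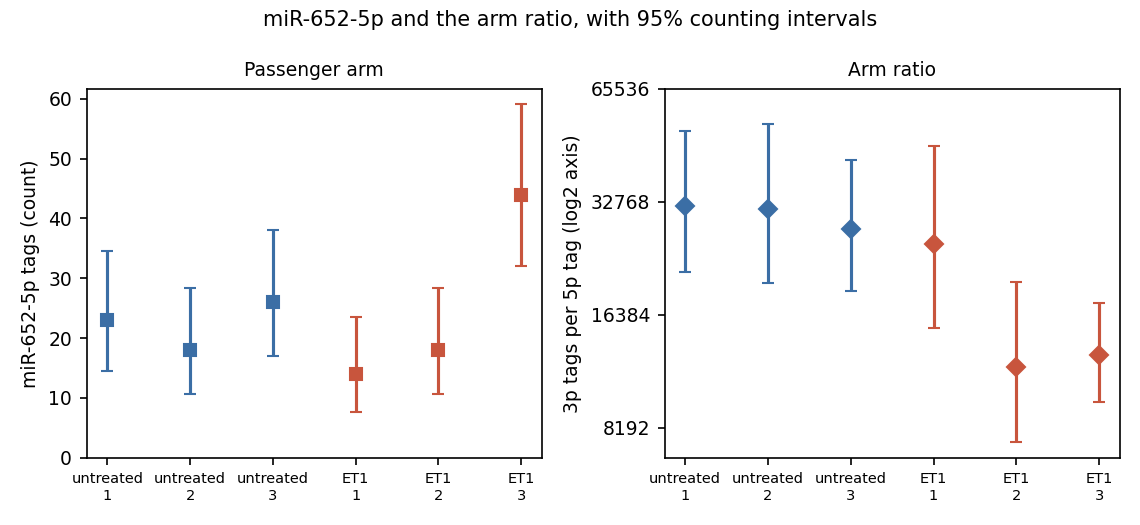
Tags of miR-652-5p in each library (left, with 95% Poisson intervals) and tags of the 3p arm per tag of the 5p arm (right, log2 axis, with 95% binomial intervals). Untreated libraries lie at 27719 to 32005 and ET1 libraries at 11859 to 25287, with the interval of ET1 library 1 across all untreated values.

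The arm ratio of miR-652 was high among the abundant precursors compared, but others were higher. These were 50 precursors whose arms had rows with the same name apart from 3p or 5p, and at least 1000 raw CPM in the major arm. Abundant miRNAs whose minor arm carries a copy number were not paired and are left out. Examples are let-7c-5p, the highest by mean level (minor arm let-7c-1-3p), and miR-92a-3p (minor arm miR-92a-1-5p). Rows shared by several miRNAs were not paired either. The median major to minor ratio of the 50, from counts summed over the 6 libraries, was 253. miR-652, with 3154243 tags of the 3p and 143 of the 5p arm, had a ratio of 22058, the fifth highest of these 50 (position 5). The highest were miR-320, which is made without Drosha, at 185656, and the smooth muscle miRNA miR-143 at 58640, with 2 and 11 tags of the minor arm in all. The lowest were let-7d at 1.17 and miR-151 at 1.28. Of the first 8 precursors miR-652 had the most minor arm tags, at least 14 in each library, and the other 7 had 0 or 1 in their lowest library. The major arm was the 3p arm in 23 and the 5p arm in 27 of the 50.

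The log2 arm ratio was lower in ET1 without overlap in 8 of the 50 precursors (16.0%), miR-652 among them, and higher without overlap in 3. By group means, 30 were lower and 20 higher in ET1, with a median difference of −0.17. After 0.5 was added to each count, so that arms at 0 have a value, the difference of miR-652 was −0.96, and 9 of the 50 were lower still. A shift of this kind was thus found in other precursors too.

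**Figure D5:**
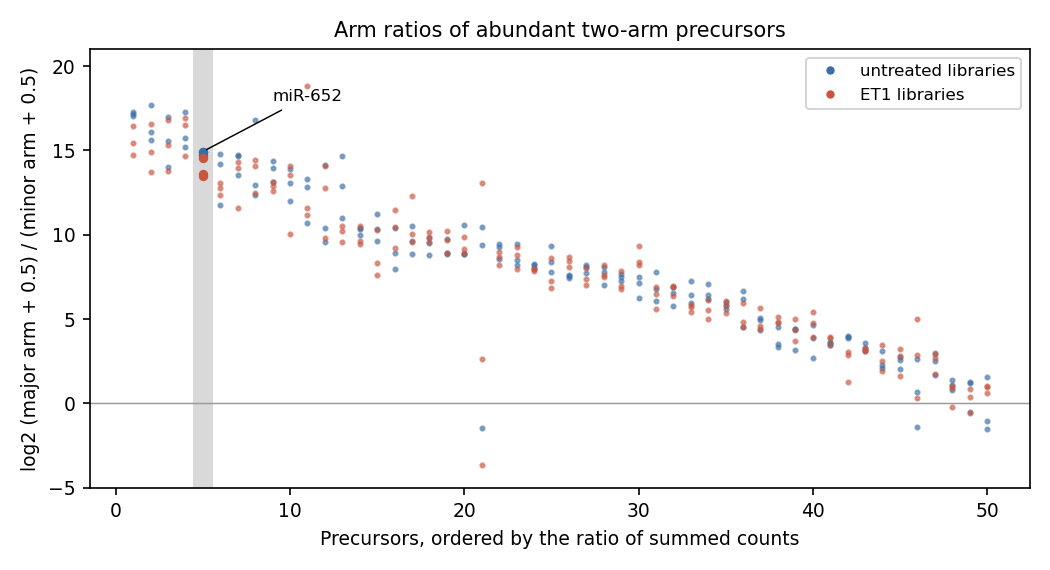
log2 ratio of the major to the minor arm in each library for the 50 precursors compared, ordered by the ratio of summed counts, with 0.5 added to both counts. Each has an abundant major arm and arms of the same name. miR-652, shaded at position 5, lies between 13.49 and 14.94, with its untreated libraries above its ET1 libraries.

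Across the 6 libraries the miRNAs whose TMM-scaled log2 CPM was most like that of miR-652-3p were miR-139-5p (Pearson r = 0.97), miR-212-3p (0.96), miR-139-3p (0.94), miR-92a-3p (0.92) and miR-378a-3p (0.89). They come from 182 miRNAs with at least 100 raw CPM, over which the median r was 0.16, and 4 had an r over 0.9. The 6 points share the group difference and the scaling of each library, so this is a description of these libraries. The arms of miR-139, made from an intron of Pde2a, followed the same order of libraries as miR-652-3p (Spearman rho = 1 for each). miR-139-5p stood at 476, 404 and 553 CPM in untreated and 276, 233 and 409 CPM in ET1 libraries. Their log2 fold changes, −0.64 for miR-139-5p and −0.69 for miR-139-3p, did not pass (edgeR adjusted p = 0.37 for each). The same was true of miR-212-3p, of the CREB-responsive miR-132 and miR-212 locus (−0.73), of miR-92a-3p, of a cluster known from proliferating cells (−0.81) and of miR-378a-3p, made from an intron of Ppargc1b (−0.71), with edgeR adjusted p = 0.34, 0.22 and 0.37.

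The 5p arm did not follow the 3p arm closely (r = 0.32 over the 6 libraries). Most like miR-652-5p were miR-330-3p (r = 0.99), miR-324-3p (0.92), miR-501-3p (0.90), miR-23a-5p (0.88) and miR-34c-3p (0.83), from the same 182 miRNAs with a median r of −0.045. With 14 to 44 tags a library the counting error of the 5p arm enters each of these values. miR-330-3p stood at 241, 212 and 285 CPM in untreated and 237, 264 and 416 CPM in ET1 libraries, so ET1 library 3 was the highest there too. None of the 5 passed the test, with log2 fold changes of 0.31, 0.51, 0.62, 0.21 and 0.38 and edgeR adjusted p from 0.42 to 0.87.

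By its mean over the 6 libraries miR-652-3p was the most abundant miRNA of the X chromosome, below miR-470-5p in ET1 library 2. RefSeq places 113 known miRNA rows on that chromosome alone, and together they held 15.2%, 16.04% and 18.9% of the known miRNA tags in untreated and 15.9%, 17.6% and 20.2% in ET1 libraries. miR-652-3p made up 59.8%, 40.7% and 61.3% of these tags in untreated and 47.97%, 27.7% and 58.05% in ET1 libraries, lowest in ET1 library 2 where miR-470-5p was high. The next were miR-470-5p and the shared row of miR-465a-3p, miR-465b-3p and miR-465c-3p, of testis-enriched X-linked clusters, miR-222-3p, which promotes smooth muscle proliferation, and miR-351-5p of the miR-322 and miR-503 cluster. Their log2 fold changes were 0.039, −0.012, 0.19 and −0.95 (edgeR adjusted p = 0.97, 0.99, 0.81 and 0.20). Of 61 tested miRNAs of the X chromosome 36 had negative and 25 positive log2 fold changes with a median of −0.26, beside 305 negative and 311 positive with a median of 0.0058 over all 616. In edgeR 0 of the 61 passed, beside 11 of all 616 (1.79%), and the smallest adjusted p of the 61 was 0.083.

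The Rfam row for the mir-652 precursor family had 0 tags in each of the 6 libraries, which allows up to 3 tags a library, or 0.347 to 0.685 raw CPM (counting error only). Of the 168 Rfam precursor rows 33 were at 0 in all libraries. No tag was thus listed under this Rfam family, and the bound does not cover how tags were assigned to rows. Whether other rows or the totals by genomic class hold tags of the hairpin was not tested.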

How the data were processed

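Small RNA libraries followed the BGI protocol, per the labels' protocols. Bowtie2 and mm10 are named, without a version, per the submitters' processing notes; databases, mismatches and the handling of tags with several loci are not given in the sources used here. The authors deposited tag counts per small RNA row and a value headed TPM, which from the values is an RPM of all rows (ratio to the recomputed RPM 0.998 to 1.003 for counts of at least 50). Their comparison table gives summed counts, a log2 ratio, p-values and q-values, per the file headers, and is named for DEGseq.

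Known miRNA counts went into edgeR 4.0.16 under R 4.3.3 (TMM, default filter with the group, robust quasi-likelihood fit, two-sided, Benjamini-Hochberg over 616 rows, threshold 0.05). Exact permutation tests compared 3 libraries with 3; 4 quantities were adjusted together. Alternatives used limma 3.58.1 and DESeq2 1.42.0 as well. Hairpins were folded with ViennaRNA 2.7.2. Named miRNAs were the 3 neighbours of the 3p arm in mean level on each side (above it only 2 exist), the 5 most correlated with each arm, the 5 most abundant of the X chromosome, the extreme arm ratios and the top marker of each list. The members and lists were chosen with earlier results of these data known. RefSeq matched 1340 of 1573 miRNA rows. No library repeats another: within groups, chi-square over its degrees of freedom was 402 to 1477. The Poisson and binomial intervals cover counting error only, and the edgeR intervals include the spread between libraries. Tags carry no molecular identifiers in the sources used here, so copies of the same molecule cannot be told apart.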

Additional observations from a re-analysis of the deposited data

How the results depend on the processing

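Neither arm passed the test in any of its alternatives: 15 for miR-652-3p, all with a negative value, and 14 for miR-652-5p (adjusted p 0.43 to 0.998). With 1 library left out, the 3p arm lay between −0.87 and −0.32 and the 5p arm between −0.067 (without ET1 library 3) and 0.76. With the share of known miRNA tags as a covariate miR-652-5p was at −0.14 (SE 0.95, against 0.55 as reported). That share did not overlap between the groups, so fits with the covariate can hardly separate it from ET1. This also limits the count of miRNAs that passed with it. A minimum of 10 CPM in 3 libraries left miR-652-5p out. The difference in the share of known miRNA tags ran from −2.79 to 0.62 points with 1 library left out (0.27 without untreated library 3, 0.62 without ET1 library 2). The difference in arm ratio was negative in all 9 alternatives, but most of them could not have changed its sign. Groups that do not overlap fix the sign when 1 library is left out, and the paired permutation reuses the same difference. Pseudocounts of 1 and 10 gave −0.96 and −0.98. The rank of miR-652-3p averaged 3.17 over the libraries, 2.17 with the let-7 family summed and 4.67 among all rows. The count of known miRNAs past the threshold, 11 as reported (8 higher, 3 lower), was 41 with library sizes alone (38 higher, 3 lower), 37 without a filter (22 and 15), 39 in the DESeq2 Wald test (24 and 15), 5 in limma-voom, 0 in edgeR with all small RNA rows together (333 of 3193 at an unadjusted p under 0.05) and 0 in edgeR with the covariate (39 at an unadjusted p under 0.05), and, on dropping single libraries, 2 (ET1 library 3 dropped), 5 (untreated library 2 dropped), 25 (untreated library 3 dropped) and at most 30 (ET1 library 1 dropped); the cause was not tested.

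With the replicate number as a replicate block, 21 miRNAs passed, miR-652-3p was at −0.59 (edgeR adjusted p = 0.17) and miR-652-5p at 0.38 (edgeR adjusted p = 0.73). For miR-652-3p the SE was 0.23 with the block against 0.32 as reported. Its edgeR unadjusted p was 0.024 with the block against 0.12 as reported. Paired sign-flip permutation gave the arm ratio an exact p of 0.25, the smallest that 3 pairs allow, and the share of miR-652-3p an exact p of 0.5. The deviations of same-numbered libraries correlated at 0.28, 0.060 and 0.25, and those of different-numbered ones at −0.24 to 0.015. Every library thus correlated best with its own number. The numbers were not taken as pairs because the labels do not say that same-numbered libraries share a culture. Depth limits the 5p arm, at 14 to 44 tags, and not the 3p arm.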

Other observations

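The first base of miR-652 arms, A on the abundant 3p arm and C on the scarce 5p arm, was set beside that of other abundant precursors. RefSeq held both arms of 40 of the 50 precursors whose arm ratios were compared. Their arms have the same name and their major arm at least 1000 raw CPM (tags in 1000000 known miRNA tags). The major arm started with U in 20, A in 13, C in 5 and G in 2 of them, and the minor arm with U in 6, A in 15, C in 16 and G in 3. A or U came first on 33 major and 21 minor arms. In 15 of the 40, miR-652 included, the major arm started with A or U and the minor arm with C or G. These counts are a description of the sequences, and no test was made.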
